A study of Homo sapiens with 62 samples.

Results

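A2780 is an ovarian cancer cell line that carries a gain of chromosome arm 1q. Its parental cells (genotype WT, 2 libraries) were compared with A2780 cells that hold an integrated TK cassette and still keep the 1q gain (genotype TK+, 2 libraries). These 4 libraries, taken by their genotype labels, are 4 of the 62 in the series, which asks what cancer cells do when a gained chromosome arm is removed by ReDACT methods. Side by side with them stand 6 A2780 libraries of 3 single-cell clones that lost the extra 1q copy (clones 2, 5 and 6, 2 libraries each), and 3 libraries of the gastric cancer line AGS, 1 WT and 2 TK+ (1 each of clones 1 and 2). Cells of all groups were plated 24 hours before RNA extraction. The labels name no clone, no promoter and no insertion site for the A2780 TK+ cells, so an effect of the cassette and an effect of having grown the line from few cells cannot be told apart. Nothing says that the 2 libraries of a group came from separate cultures, so p-values measure only the spread between these libraries.

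In the negative-selection version of ReDACT, a viral thymidine kinase gene is placed on the gained arm. Thymidine kinase phosphorylates thymidine, and the herpesvirus enzyme also activates the prodrug ganciclovir, so that cells that have lost the cassette survive the drug. The TK+ cells are thus an intermediate that has been engineered and expanded but not yet selected for loss. A cancer cell line is a mixed population whose cells can differ in heritable gene expression, and a culture grown from few of them carries the state of its founders. The cassette's own transcript was not analysed here.

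The 4 libraries held 20372096 to 23358051 counts, and mitochondrial genes took 7.81% to 10.7% of them, more in replicate 1 than in replicate 2 of both groups. Levels are given as CPM (counts relative to library size, scaled with TMM over the 10 A2780 libraries). Of 16 markers of ovarian and Mullerian epithelium, 3 (KRT8, KRT18 and MUC1) were at 1 CPM or more in all 4 libraries, while WT1, SOX17 and EMX2 had 0 counts and PAX8 was under 1 CPM. A count of 0 allows up to 3 counts per library. The summed level of this list was 185 and 175 CPM in WT and 10.2 and 12.9 CPM in TK+. KRT8 and KRT18 made up most of it in WT. Of the other tested members, EPCAM, MUC1 and KRT19 were not called (log2 fold changes 0.00, -0.16 and -0.44), and CLDN3 was called higher with 0 and 3 counts in WT and 13 and 15 in TK+ (adjusted p = 0.0383, edgeR). All 7 fibroblast markers were at 1 CPM or more in WT, and their sum was 2872 and 2980 CPM in WT and 2192 and 1948 CPM in TK+. Summed leukocyte markers were 0.0442 to 0.366 CPM and endothelial markers 0.0884 to 0.148 CPM. KRT5, KRT14 and KRT6A, markers of basal epithelium, were at 0 in WT replicate 1 but at 4.1, 2.17 and 2.37 CPM in WT replicate 2 and at 1.28 to 4.53 CPM in both TK+ libraries. WT replicate 1 therefore stood apart from the other 3 libraries in these keratins.

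Genes with almost no reads in 1 group and clear reads in the other mark the difference between the cultures most plainly, so the promoters of 4 of them are shown, 2 off and 2 on in TK+. Each is the 250 bases before the annotated start, 5′ to 3′ on the gene's strand, from RefSeq (GRCh38.p14), with CG dinucleotides in capitals, since CG density separates classes of promoter. ENPP1 (chr6:131807770-131808019, plus strand) and TNFRSF19 (chr13:23570162-23570411, plus strand) were off in TK+. PRR15 (chr7:29563585-29563834, plus strand) and GPR65 (chr14:88004885-88005134, plus strand) were on.
ENPP1: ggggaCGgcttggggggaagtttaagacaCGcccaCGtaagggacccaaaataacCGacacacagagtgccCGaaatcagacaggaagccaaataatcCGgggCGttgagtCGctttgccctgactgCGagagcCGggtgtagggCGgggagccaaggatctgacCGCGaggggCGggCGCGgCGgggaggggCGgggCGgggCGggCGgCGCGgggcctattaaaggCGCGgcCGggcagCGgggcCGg
TNFRSF19: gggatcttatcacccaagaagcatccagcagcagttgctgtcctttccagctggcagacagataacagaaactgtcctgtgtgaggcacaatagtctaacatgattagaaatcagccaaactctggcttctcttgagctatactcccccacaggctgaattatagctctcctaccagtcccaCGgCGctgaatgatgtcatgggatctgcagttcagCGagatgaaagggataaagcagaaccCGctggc
PRR15: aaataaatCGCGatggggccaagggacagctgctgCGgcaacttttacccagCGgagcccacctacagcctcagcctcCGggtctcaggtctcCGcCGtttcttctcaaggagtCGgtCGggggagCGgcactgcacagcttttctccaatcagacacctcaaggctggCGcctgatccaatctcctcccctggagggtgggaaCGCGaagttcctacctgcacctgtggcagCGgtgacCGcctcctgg
GPR65: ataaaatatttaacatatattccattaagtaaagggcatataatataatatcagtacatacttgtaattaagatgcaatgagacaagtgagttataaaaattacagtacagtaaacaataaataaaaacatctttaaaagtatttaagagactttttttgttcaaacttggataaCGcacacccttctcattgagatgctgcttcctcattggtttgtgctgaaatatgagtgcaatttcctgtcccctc
The ENPP1 promoter holds 28 CG dinucleotides, a number reached by 15.9% of the 35114 promoters in the table. The TNFRSF19 promoter holds 4, PRR15 holds 15 and GPR65 holds 1, and 93.9% of all promoters hold at least as many as GPR65. RefSeq promoters were matched for 23 of the 34 protein-coding genes that were on or off. The 19 matched genes that were off had a median of 17 CG (range 2 to 33) and the 4 that were on had a median of 5.5 (range 1 to 15). The 10124 tested protein-coding genes with a promoter had a median of 21. Both CG-poor and CG-rich promoters thus occurred among the genes that were off.

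The first comparison asked how far TK+ cells had moved from their parents across all genes. Of 14888 genes tested with edgeR's quasi-likelihood test, 1669 passed an adjusted p of 0.05, which is 11.2% of those tested. In TK+, 768 genes were higher (5.16%) and 901 were lower (6.05%). Of the called genes, 1537 were protein-coding. Of all genes tested, 783 (5.26%) were called with a change of 2-fold or more, 302 higher (2.03%) and 481 lower (3.23%), and 70 changed 32-fold or more, 23 higher and 47 lower. The median log2 fold change of all genes tested was 0.00, and that of called genes in absolute size was 0.78 for the higher and 1.14 for the lower. Without WT replicate 1 the test called 1094 genes, without WT replicate 2 it called 1148, without TK+ replicate 1 it called 3278, and without TK+ replicate 2 it called 2965, in fits where the lone library is assumed to vary like the other group. The count of called genes past 2-fold moved less, from 685 to 854 when 1 library was left out.

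**Figure D1:**
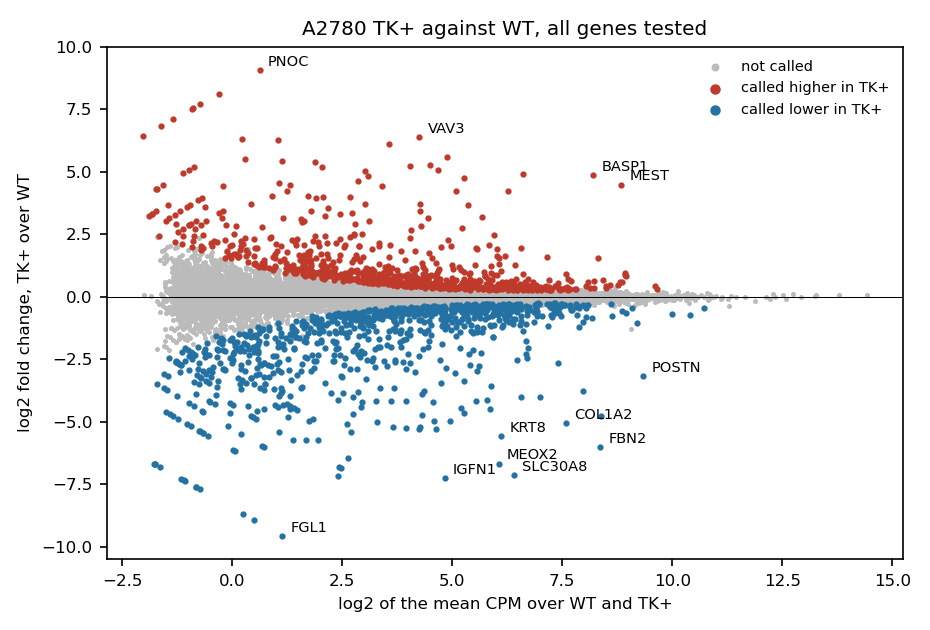
Log2 fold change of TK+ over WT against the log2 mean CPM over both groups, 1 point per gene tested, with called genes in red (768 higher) and blue (901 lower). The most abundant genes lie near 0, while FBN2, MEST, BASP1 and POSTN stand out among genes of high level.

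The 12 largest rises were taken among called protein-coding genes with a mean of at least 1 CPM. Such a choice favours genes whose groups lie far apart. PNOC, the precursor of the neuropeptide nociceptin, had 0 counts in both WT libraries and 65 and 72 counts in TK+ replicates 1 and 2. TK+ was thus at least 21.7-fold higher against a floor of 3 counts per WT library (adjusted p = 1.74e-05, edgeR). VAV3, a nucleotide exchange factor for small GTPases, was at 0.136 and 0.79 CPM in WT and at 39.2 and 36.4 CPM in TK+. Its neighbour NTNG1, a membrane-anchored netrin that guides axons, was at 0.363 and 0.296 CPM in WT and 23.2 and 23.7 CPM in TK+. The groups were far apart for both genes, with log2 fold changes of 6.38 ± 0.28 (SE, adjusted p = 1.44e-08) for VAV3 and 6.13 ± 0.21 (adjusted p = 1.37e-09) for NTNG1 in edgeR.

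BASP1, a growth-cone protein bound to the inner membrane, showed the largest rise in level among the 12. It was at 18.5 and 20.4 CPM in WT and at 553 and 584 CPM in TK+, 4.88 ± 0.10 higher on the log2 scale (SE, adjusted p = 3.69e-11, edgeR). POU3F3, a transcription factor of the developing brain, was at 5.4 and 7.16 CPM in WT and 179 and 199 CPM in TK+. SLC16A7, a transporter of lactate and pyruvate, was at 1.13 and 1.14 CPM in WT and 43.3 and 44.6 CPM in TK+. In none of these 3 genes, which were chosen for a large rise, did any TK+ library come near a WT library. UGT8, the enzyme that makes galactosylceramide for myelin, was at 0.907 and 0.79 CPM in WT and 32.2 and 31.8 CPM in TK+. CHN2, a GTPase-activating protein for Rac, was at 1.68 and 1.28 CPM against 52.1 and 47.5 CPM. The remaining members of the 12 were PRR15, HELZ2, the bicarbonate transporter SLC4A4 and the transcription factor TOX, with log2 fold changes of 4.85 to 5.43.

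The 12 largest falls included secreted and matrix proteins, a zinc transporter and a homeobox factor. FGL1, a fibrinogen-like protein known from liver, had 107 and 79 counts in WT and 0 counts in both TK+ libraries, so it was at least 32.4-fold lower in TK+ (adjusted p = 4.73e-06, edgeR). SLC30A8, the zinc transporter of insulin granules, was at 171 and 165 CPM in WT and at 0.84 and 1.51 CPM in TK+. MEOX2, a homeobox factor of mesoderm, was at 132 CPM in both WT libraries and at 1.28 CPM in both TK+ libraries. The log2 fold changes were -7.15 ± 0.16 (SE, adjusted p = 4.36e-11) for SLC30A8 and -6.68 ± 0.12 (adjusted p = 2.03e-11) for MEOX2 in edgeR. FBN2, fibrillin-2 of the elastic microfibrils, was at 628 and 670 CPM in WT and at 8.84 and 11 CPM in TK+, so that its log2 fold change was -6.03 ± 0.13 (adjusted p = 3.69e-11, edgeR; SE after ±). IGFN1, an immunoglobulin-like protein of muscle, was at 52.8 and 60.3 CPM in WT and 0.265 and 0.458 CPM in TK+. All of these had WT libraries close to each other and no overlap with TK+, which their choice as the largest called falls favours.

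CTGF, a matricellular protein induced by YAP and TGF-beta, had 275 and 192 counts in WT and 2 counts in each TK+ library, a ratio of 123 (95% exact counting interval 47.6 to 453). ENPP1, which makes pyrophosphate and cleaves the messenger cGAMP, had 242 and 208 counts in WT and 2 and 1 in TK+, a ratio of 158 (53.6 to 768). FREM1, a protein of the basement membrane, had 234 and 220 counts in WT and 2 in each TK+ library, a ratio of 119 (46.3 to 440). These intervals cover counting error only. TNFRSF19, the insulin receptor adaptor GRB14, the cadherin FAT3 and AGT, the precursor of angiotensin, complete the 12, with fitted log2 fold changes of -8.94 to -6.15, which for genes this close to 0 depend on the prior count.

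**Figure D2:**
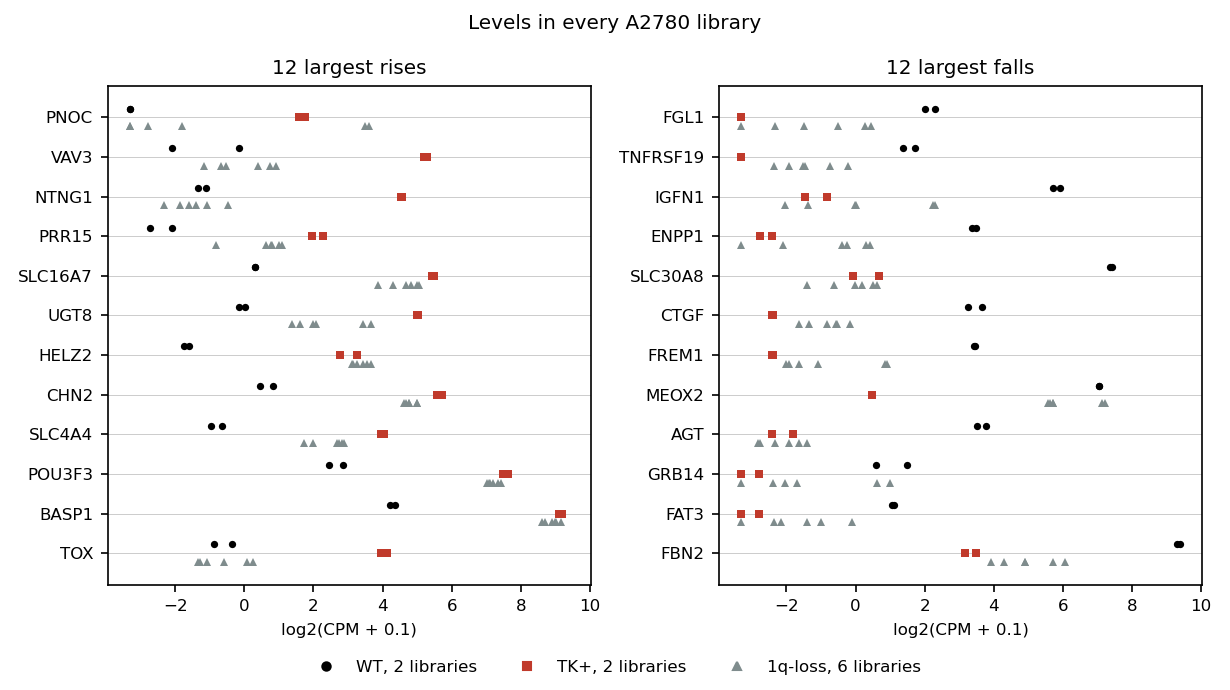
Level of the 12 largest rises and 12 largest falls in every A2780 library, as log2(CPM + 0.1), with WT as black circles, TK+ as red squares and 1q-loss as grey triangles. WT and TK+ libraries do not overlap in any of the 24 genes, which were chosen for that difference, and the 1q-loss libraries lie near TK+ for BASP1 and POU3F3 but near WT for NTNG1 and TOX.

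Among called protein-coding genes, those that gained most in absolute level were MEST, BASP1, DMD, PCDH9 and NEFH. MEST, an imprinted gene expressed from the paternal allele, was at 40.1 and 38.6 CPM in WT and at 955 and 802 CPM in TK+, 4.49 ± 0.11 higher on the log2 scale (SE, adjusted p = 1.24e-10, edgeR). COPG2 overlaps MEST, and the strand setting of the counting is not stated in the sources used here. DMD, which encodes dystrophin, was at 331 and 330 CPM in WT and 636 and 653 CPM in TK+. PCDH9, a protocadherin of neurons, was at 166 and 162 CPM against 469 and 485 CPM, and NEFH, the heavy neurofilament chain, at 344 and 349 CPM against 631 and 637 CPM. Those that lost most, again among called protein-coding genes, were POSTN, CCND2, FBN2, NES and FREM2. POSTN, the matrix protein periostin, fell from 1168 and 1157 CPM to 139 and 119 CPM (log2 fold change -3.17 ± 0.10, SE, adjusted p = 8.67e-10, edgeR). FREM2, a partner of FREM1 in the basement membrane, fell from 451 and 489 CPM to 29.4 and 38.9 CPM. The cyclin CCND2 fell from 1611 and 1743 CPM to 889 and 1150 CPM. NES, which encodes nestin, was at 1956 and 1957 CPM in WT and 1364 and 1520 CPM in TK+ (adjusted p = 0.012, edgeR), a call that was lost without WT replicate 1 (adjusted p = 0.203) or WT replicate 2 (0.207).

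By a fixed definition, 46 called genes had 3 counts or fewer in both libraries of 1 group and 20 or more in both of the other. Of these, 13 were on and 33 were off in TK+. Among the 13 that were on, 5 are protein-coding (GPR65, PNOC, PRR15, CCDC89 and ARSJ) and 8 are non-coding, such as LINC00871 with 3 and 0 counts in WT and 40 and 34 in TK+. GPR65, a proton-sensing receptor known from lymphocytes, had 0 counts in WT and 24 and 23 in TK+, at least 7.43-fold higher. PRR15, a small proline-rich protein, had 3 and 1 counts in WT and 108 and 83 in TK+, a ratio of 45.4 (95% exact counting interval 17.4 to 168). Of the 33 that were off, 29 are protein-coding. BMP4, a ligand of the BMP pathway, had 20 and 32 counts in WT and 1 and 0 in TK+ (ratio 54.7, 9.39 to 2202), and its receptor BMPR1B had 50 and 46 counts in WT and 1 in each TK+ library (ratio 50.5, 13.6 to 423). VEGFC, a growth factor of lymphatic vessels, had 40 and 38 counts against 2 and 2. FLRT2, an adhesion protein that binds guidance receptors, had 91 and 82 counts in WT and 2 in each TK+ library. The 46 genes lay in a range of few counts, where a mean of at least 1 CPM keeps 17 of them.

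Genes of the extracellular matrix were described by list. Of 25 tested collagen genes, 3 rose and 8 fell, beside 5.16% and 6.05% of all genes tested, with a median log2 fold change of -0.38 beside 0.00 for all genes. COL1A2, a chain of type I collagen, fell from 373 and 377 CPM to 11.3 and 11 CPM (log2 fold change -5.07 ± 0.09, SE, adjusted p = 2.03e-11, edgeR). Its partner chain COL1A1 fell from 88.6 and 79 CPM to 16.8 and 18.4 CPM. COL3A1, at 1839 and 1936 CPM in WT and 1788 and 1635 CPM in TK+, was not called (log2 fold change -0.13 ± 0.10, SE, adjusted p = 0.497). COL6A3 and COL11A1 fell, while COL12A1 rose from 4.72 and 4.64 CPM to 16.8 and 22.1 CPM. Collagens as a group therefore did not move one way, and the 2 chains of type I fell to different degrees. Without WT replicate 1 the collagen counts were 1 higher and 6 lower, a loss that includes COL5A2 (adjusted p = 0.268) and COL19A1 (0.062). COL5A2 also lost its call without WT replicate 2 (0.161).

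Basement membrane and matrix-binding genes were also called in both directions, with medians of 0.14 for laminins and nidogens, 0.17 for integrins and 0.05 for proteases and inhibitors on the log2 scale. Among 11 tested laminins and nidogens, 2 rose and 4 fell, and 1 rose without either WT library, where LAMB2 lost its call (adjusted p = 0.439 and 0.279). NID1 fell from 167 and 188 CPM to 34 and 30.8 CPM and NID2 from 31.4 and 31.7 CPM to 3.62 and 4.16 CPM; both link laminin to type IV collagen. LAMA1 and LAMB1 fell by 2.65 and 2.40 on the log2 scale, whereas LAMA5 was higher by 0.64. Of 15 tested integrins, 1 rose and 5 fell, with ITGA8 lower by a log2 fold change of -2.33 and the fibronectin receptor chain ITGA5 by -0.65. ITGA6, the one that rose, lost its call without either WT library (adjusted p = 0.2 and 0.19). Of 22 tested matrix proteases and inhibitors, 5 rose and 7 fell, among them the inhibitor TIMP3 (log2 fold change -2.47) and the membrane protease MMP14, which rose from 1.45 and 1.68 CPM to 4.64 and 3.94 CPM. Without WT replicate 1, 3 proteases and inhibitors rose and 6 fell. Called shares in these lists were 54.5% (laminins and nidogens), 40% (integrins) and 54.5% (proteases), beside 11.2% of all genes. Fibroblast markers include type I collagen and fell in the same libraries, 6 of 7 being called lower; their part in these results was not tested.

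Genes of signalling pathways that act on matrix and cell fate came next. Of 18 tested targets of TGF-beta, BMP and YAP, 0 rose and 5 fell (27.8% called, beside 11.2% of all genes), with CTGF the largest. CYR61, another YAP target, fell from 102 and 108 CPM to 52.4 and 50.6 CPM. The median of the list was -0.09, so most of its members moved little. Without either WT library 3 were lower. Without TK+ replicate 1, 2 were higher and 8 lower, and without TK+ replicate 2, 3 were higher and 7 lower. Of 25 tested WNT and NOTCH genes, 1 rose and 9 fell (40% called). The ligand WNT5A was at 3.58 and 3.46 CPM in WT and 0.486 and 0.595 CPM in TK+. The NOTCH ligand JAG1 fell from 43.2 and 46.7 CPM to 17.9 and 18.1 CPM, and SFRP1, a secreted WNT inhibitor, from 19 and 17.9 CPM to 7.51 and 7.6 CPM. DKK1, also a WNT inhibitor, was the one that rose, from 71.1 and 66.6 CPM to 98.8 and 88.7 CPM, a call lost without WT replicate 2 (adjusted p = 0.0788). Of 13 tested NF-kB targets and cytokines, 3 fell (23.1% called), of which CSF1, the macrophage growth factor, fell from 10.2 and 12 CPM to 2.3 and 2.52 CPM; TRAF1 and NFKB2 lost their calls without WT replicate 2 (adjusted p = 0.343 and 0.467), and NFKB2 also without WT replicate 1 (0.263).

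Epithelial and mesenchymal genes changed in both directions. KRT8 and KRT18, the paired keratins of simple epithelium, fell from 141 and 132 CPM to 2.34 and 3.29 CPM and from 38.7 and 38.5 CPM to 2.25 and 3.29 CPM. Their log2 fold changes were -5.59 ± 0.13 (SE, adjusted p = 9.19e-11) and -3.79 ± 0.16 (adjusted p = 8.19e-09) in edgeR. The 2 genes overlap in the annotation and could share reads. Of 10 tested keratins, 1 rose (KRT10, a call lost without WT replicate 1, adjusted p = 0.307, or WT replicate 2, 0.351) and 2 fell. Without WT replicate 2, which carries the basal keratins, 3 were called higher, and without TK+ replicate 1, 4. ZEB2, a repressor of E-cadherin that drives the mesenchymal state, fell from 9.62 and 12 CPM to 0.663 and 0.824 CPM. N-cadherin (CDH2) fell from 74.4 and 71.8 CPM to 10.4 and 11.7 CPM, and SNAI2 from 36.8 and 31.4 CPM to 12.5 and 11.3 CPM. TWIST1, which like ZEB2 and SNAI2 represses E-cadherin, rose from 121 and 110 CPM to 176 and 187 CPM. The junction gene CLDN1 rose from 0.726 and 0.445 CPM to 3.18 and 2.97 CPM, and OCLN was at 25.3 and 29 CPM in WT and 37.6 and 35.3 CPM in TK+, a call lost without WT replicate 1 (adjusted p = 0.311). Of the 15 tested members of this list, 3 rose and 3 fell (40% called, and 30% of keratins, beside 11.2% of all genes). ZEB1, VIM and FN1, other mesenchymal genes, were not called (adjusted p = 0.471, 0.996 and 0.579).

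Neural guidance and adhesion genes were called in both directions. Of 51 tested semaphorins, ephrins and other guidance genes, 8 rose and 7 fell (29.4% called, beside 11.2% of all genes). The ephrin receptor EPHA3 rose from 1.09 and 0.79 CPM to 21.1 and 19.5 CPM, and ROBO2, a receptor for SLIT ligands, from 0.817 and 0.395 CPM to 6.1 and 4.44 CPM. SEMA6A, a membrane semaphorin, fell from 39.7 and 36.9 CPM to 1.06 and 1.78 CPM. Of 42 tested protocadherins, 3 rose and 3 fell (14.3% called), and 5 or 6 fell without TK+ replicate 1 or 2. PCDH15 fell from 30.2 and 28.2 CPM to 2.39 and 0.824 CPM. Of 16 tested HOX genes, 6 rose and 0 fell (37.5% called). HOXB13 was at 2.13 and 3.75 CPM in WT and 11.4 and 12.4 CPM in TK+ (log2 fold change 2.03 ± 0.22, SE, adjusted p = 6.04e-05, edgeR). The other 5 are HOXB3, HOXB5, HOXB6, HOXB7 and HOXC10, with log2 fold changes of 0.29 to 0.60. HOXB3 overlaps other HOXB genes in the annotation. The HOX count was 4 without WT replicate 2 and 5 without WT replicate 1.

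Imprinted genes were called in both directions, 3 higher and 7 lower of 25 tested (40% called, beside 11.2% of all genes), and 6 higher and 9 lower without TK+ replicate 1. H19, a non-coding RNA expressed from the maternal allele, fell from 631 and 664 CPM to 23.2 and 23.7 CPM (log2 fold change -4.78 ± 0.10, SE, adjusted p = 3.69e-11, edgeR). GRB10, an adaptor that restrains growth-factor signalling, fell from 13.9 and 15.4 CPM to 0.619 and 0.732 CPM. TFPI2, PPP1R9A and ZDBF2 fell by 4.51, 4.29 and 3.77 on the log2 scale. MEST rose, as above, and NDN, which encodes necdin, rose from 22 and 19.1 CPM to 48.8 and 39.8 CPM. Zinc-finger genes on chromosome 19, most of which encode repressors, were called at 10 higher and 4 lower of 197 tested (7.11%), below the share of all genes. ZNF431 was at 1.09 and 1.23 CPM in WT and 16.4 and 13.8 CPM in TK+. Without WT replicate 1 the counts of this list were 5 and 3, without WT replicate 2 they were 6 and 2, and without TK+ replicate 1 they were 16 and 8.

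Genes that sense foreign nucleic acid were looked at because the cells received a viral gene. A link of their changes to the cassette was not tested. Of 28 tested interferon-stimulated genes, 6 rose and 1 fell (25% called, beside 11.2% of all genes). OAS3, which makes the 2-5A messenger that activates RNase L, rose from 2.77 and 3.75 CPM to 35.7 and 34.6 CPM (log2 fold change 3.44 ± 0.15, SE, adjusted p = 1.23e-08, edgeR). IFIT1 overlaps LIPA and TAP1 overlaps PSMB9 in the annotation. IFI44L rose from 1.54 and 1.58 CPM to 6.76 and 5.95 CPM. IFIT1, which binds foreign RNA ends, fell from 22.6 and 21.3 CPM to 14.2 and 11.8 CPM. In the 1q-loss clones OAS3 was at 2.29 to 9.82 CPM and IFI44L at 0 to 0.281 CPM. There IFIT1 was at 25 to 150 CPM, above WT. In TK+, HERC6, PARP14, DTX3L and PARP9 rose by log2 fold changes of 0.57 to 1.11. PARP9, DTX3L and PARP14 are adjacent and form 1 run (chr3:122246771-122449687, GRCh37), and HERC6 lost its call without WT replicate 2 (adjusted p = 0.18). The median of the list was 0.07, and 21 of 28 members were not called. Without TK+ replicate 1, 8 rose and 5 fell. In class I antigen presentation, TAP1, the peptide transporter, fell from 50.4 and 46.6 CPM to 23.3 and 24.7 CPM and ERAP1 fell as well. They are the 2 called of 14 tested (14.3%), near the share of all genes, and the list gave 2 higher and 3 lower without TK+ replicate 2, and 1 and 3 without TK+ replicate 1.

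The cell's own thymidine kinases were not called. TK1, the cytosolic human enzyme, was at 149 and 138 CPM in WT and at 175 and 151 CPM in TK+ (log2 fold change 0.19 ± 0.09, SE, adjusted p = 0.23, edgeR). TK2, the mitochondrial enzyme, was at 7.08 and 6.62 CPM in WT and 7.29 and 9.47 CPM in TK+ (0.30 ± 0.18, SE, adjusted p = 0.388). Without TK+ replicate 2 the adjusted p of TK1 was 0.00014, and without TK+ replicate 1 that of TK2 was 0.0449, so each call depended on which TK+ library was kept. Of 23 tested genes of nucleoside and thymidylate metabolism, 1 rose and 1 fell (8.7% called, beside 11.2% of all genes). UPP1, which cleaves uridine, fell from 17.9 and 19.7 CPM to 7.56 and 6.96 CPM, and SAMHD1, a dNTP hydrolase, rose by a log2 fold change of 0.34 that lost its call without either WT library (adjusted p = 0.384 and 0.19). This list had 8 higher members without TK+ replicate 2, and 3 higher and 3 lower without TK+ replicate 1. Of 13 tested p53 targets, 0 rose and 2 fell, which is 15.4% and near the share of all genes (4 without TK+ replicate 1, and 1 without either WT library). CDKN1A, the cell-cycle inhibitor p21, fell from 32.5 and 32.8 CPM to 24.2 and 20.1 CPM (-0.55 ± 0.11, SE, adjusted p = 0.00538), while AEN lost its call without either WT library (adjusted p = 0.108 and 0.19). MDM2, the ubiquitin ligase of p53, was at 87 and 88.7 CPM in WT and 84.7 and 81.5 CPM in TK+ (adjusted p = 0.682). The list of p53 targets is short and leaves out PHLDA3, a p53-induced gene that was lower in TK+. Its log2 fold change was -1.44 ± 0.09 (SE, adjusted p = 5.74e-07, edgeR). Of 14 tested BCL2 family genes, 1 rose and 2 fell (21.4% called). The anti-apoptotic BCL2 fell from 7.85 and 7.95 CPM to 0.707 and 0.732 CPM, and the pro-apoptotic BCL2L11 rose from 3.95 and 3.16 CPM to 10.4 and 9.7 CPM. BOK, also pro-apoptotic, fell from 46.5 and 45.2 CPM to 36.9 and 31.6 CPM (adjusted p = 0.0144), a call lost without either WT library (adjusted p = 0.119 and 0.0643).

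Housekeeping lists held few calls. Of 39 tested genes of DNA replication and mitosis, 77 cytosolic ribosomal proteins and 13 mitochondrially encoded genes, 0 were called by edgeR or DESeq2, with medians of -0.03, 0.04 and -0.01. At an unadjusted p under 0.05 edgeR had 3, 1 and 0 of them. These counts rest on keeping both TK+ libraries. Without TK+ replicate 2, 45 ribosomal genes were called higher and 6 lower. Without TK+ replicate 1, 3 were higher and 24 lower. Replication genes then gave 2 higher and 1 lower, or 2 higher and 4 lower, and mitochondrial genes 6 and 1, or 1 and 8. MKI67, a proliferation marker, was at 748 and 808 CPM in WT and 677 and 894 CPM in TK+, so its TK+ libraries lay on either side of WT. HSPB1, a small heat shock protein, was the 1 called member of 12 cytosolic heat shock genes (8.33%, beside 11.2% of all genes) and rose from 31.1 and 36.8 CPM to 102 and 96 CPM. In detoxification, 1 of 24 genes rose (MGST1, from 6.35 and 9.09 CPM to 21.8 and 12.3 CPM) and ABCC4 fell, a call lost without either WT library (adjusted p = 0.266 and 0.0871). These are 8.33% of the list, below the share of all genes. This list gave 6 higher and 3 lower without TK+ replicate 2, and 3 of each without TK+ replicate 1.

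**Figure D3:**
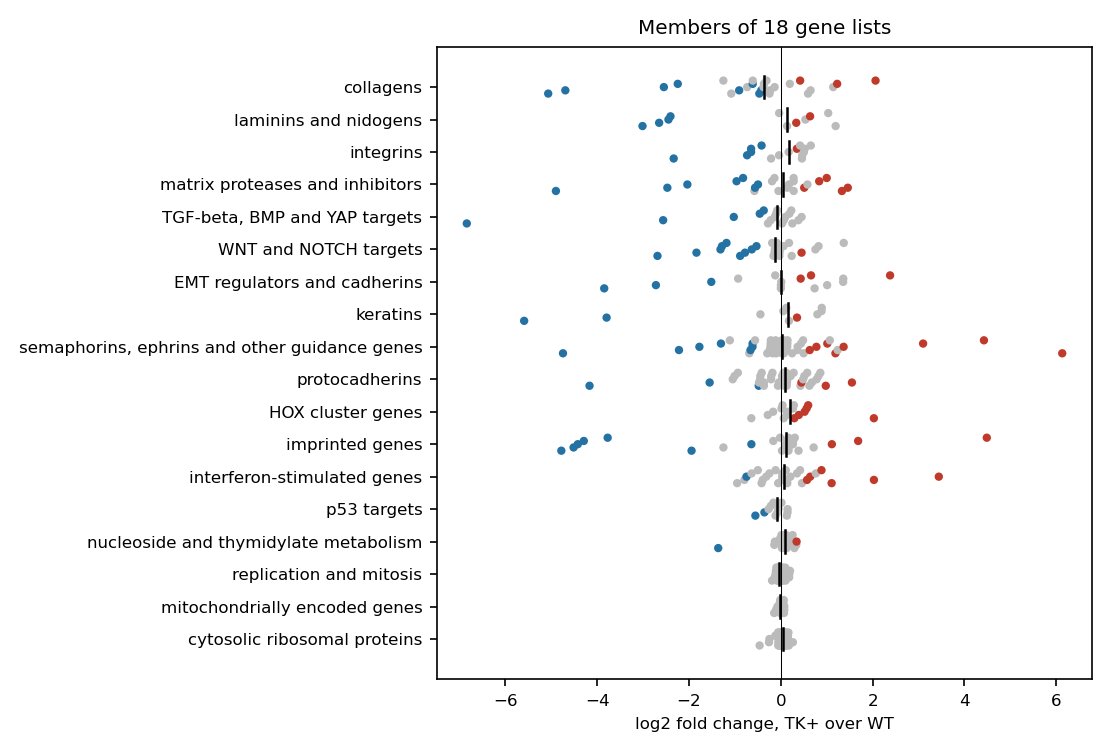
Log2 fold change of TK+ over WT for every tested member of 18 gene lists, with called members in red (higher) or blue (lower), others in grey and the list's median as a black line. Guidance and imprinted genes spread over several units on both sides and collagens mostly on the lower side, whereas replication, mitochondrial and ribosomal genes lie near 0.

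The next comparison asked whether TK+ cells kept the arm dosage of WT. The median shift of 655 tested genes on 1q, relative to other autosomal genes, was -0.04 and -0.02 in the TK+ libraries on the log2 scale. The same shift was -0.56 and -0.58 in loss clone 2, -0.47 and -0.49 in clone 5 and -0.38 in both libraries of clone 6. TK+ thus stayed close to WT and apart from every loss library. Over 41 arms with at least 30 tested genes, the mean TK+ shift ran from -0.07 to 0.08, and 0 arms passed 0.1. With 2 libraries against 2, an exact permutation test cannot reach 0.05, so none was made. MDM4, the p53 inhibitor on 1q, was at 110 and 104 CPM in WT and 101 and 116 CPM in TK+, and at 54.9 to 89.7 CPM in the loss clones. UCK2, a 1q kinase that phosphorylates uridine and cytidine, was at 201 and 212 CPM in WT, 219 and 226 CPM in TK+ and 111 to 158 CPM in the loss clones. The share of genes called by arm ran from 5.11% on 16p to 20.4% on 4q, with 12.8% on 1q.

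**Figure D4:**
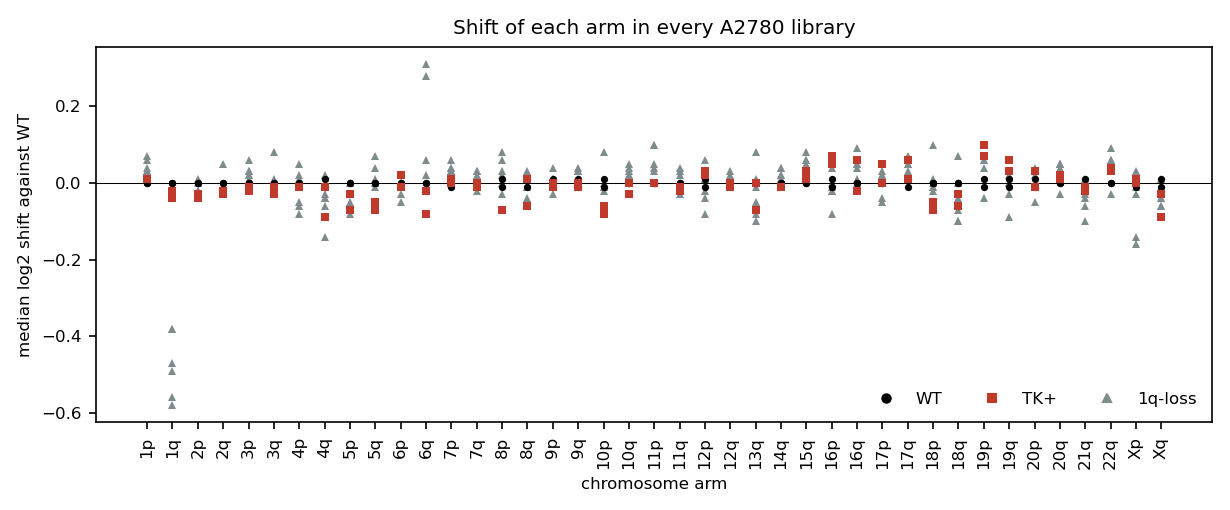
Median log2 shift of each chromosome arm against WT, in every A2780 library (WT black circles, TK+ red squares, 1q-loss grey triangles). On 1q the TK+ libraries lie at -0.04 and -0.02 and the 6 loss libraries between -0.58 and -0.38.

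Genes that changed often lay next to each other on the chromosome, a pattern that was noticed after the values were seen. For each tested protein-coding gene the nearest tested one that does not overlap it was taken. Among 697 genes called higher, the nearest neighbour was also called higher for 114 (16.4%), beside 5.23% of all 12514 protein-coding genes. Among 840 genes called lower, it was also lower for 191 (22.7%), beside 6.16%. A neighbour called the other way was seen for 4.45% and 4.4%. The share grew with the size of the rise, to 41.9% of the 62 genes that rose 8-fold or more, and for falls of that size it was 30.1% of 143. Among tested protein-coding genes in order of position, there were 64 runs of 3 or more consecutive called genes of 1 direction, 25 higher and 39 lower, which held 237 genes. The runs spanned 0.0449 to 7.98 Mb, so their genes are not always close to each other. Neighbours can share promoters, enhancers or mapped reads, and no test of this pattern was made.

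The longest run was 10 genes lower in TK+ on 1q (chr1:200860176-201796102, GRCh37), from C1orf106 to NAV1. It includes IGFN1 and the troponins TNNT2 (3.18 and 2.57 CPM in WT, 0.442 and 0.458 CPM in TK+) and TNNI1 of the muscle thin filament. PHLDA3, a p53-induced inhibitor of AKT in the same run, fell from 65.8 and 63.2 CPM to 22.3 and 25 CPM, and NAV1, a neuronal microtubule protein, from 86.5 and 97.6 CPM to 27 and 33.6 CPM. The tested genes on both sides, CAMSAP2 and IPO9, had log2 fold changes of -0.12 and 0.03 and were not called. On Xq, 7 consecutive protein-coding genes from MBNL3 to PHF6 (chrX:131503345-133562820, GRCh37) were lower, with a median log2 fold change of -4.20. They include the neighbouring glypicans GPC4 (69.5 and 71.3 CPM in WT, 2.92 and 3.43 CPM in TK+) and GPC3 (41.9 and 48.2 CPM, 2.61 and 2.2 CPM), cell-surface proteoglycans that modulate growth factors. HS6ST2, which sulfates the heparan chains that such proteins carry, fell from 117 and 106 CPM to 5.7 and 4.26 CPM. PHF6 at the end of that run fell less, from 57.9 and 60.5 CPM to 45.6 and 43.3 CPM.

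For 2 runs of genes that rose, the flanking genes were looked at. On 7p, CREB5, CPVL, CHN2 and PRR15 (chr7:28338940-29606911, GRCh37) rose with log2 fold changes of 3.17 to 5.43, between TAX1BP1 (0.09) and SCRN1 (0.03), which were not called. CPVL, a carboxypeptidase that overlaps CHN2, was at 3.18 and 2.32 CPM in WT and 76.6 and 73 CPM in TK+. On 5p, MYO10, BASP1 and CDH10 (chr5:16665395-24645087, GRCh37) are consecutive among the tested protein-coding genes and all rose. Their log2 fold changes were 4.23, 4.88 and 4.22. This run spans 7.98 Mb, most of it between the end of BASP1 (17276943) and the start of CDH10 (24487209). MYO10, a myosin of filopodia, was at 3.72 and 3.21 CPM in WT and 61.6 and 68 CPM in TK+, and CDH10, a neural cadherin, at 8.21 and 7.71 CPM against 154 and 141 CPM. Of the non-coding genes and pseudogenes between them, AC091878.1 rose (adjusted p = 9.69e-06), as did another beside BASP1, and GUSBP1 and HSPD1P1 were not called (adjusted p = 0.198 and 0.844). On 1p, VAV3 and NTNG1 belong to a run of 3 with PRMT6. On 13q, POSTN, TRPC4, UFM1 and FREM2 formed a run of 4 that were lower.

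**Figure D5:**
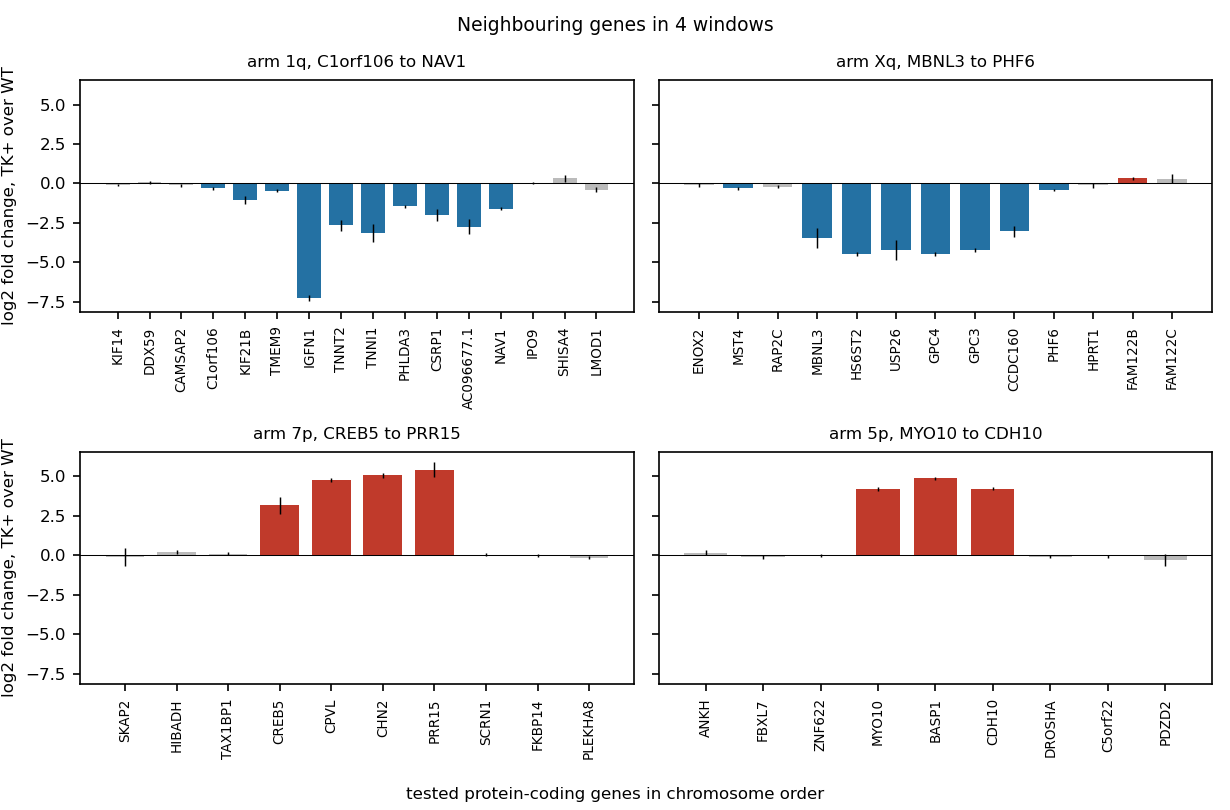
Log2 fold change (bars) and its SE (lines) of consecutive tested protein-coding genes in 4 windows chosen after the values were seen, with the run and 3 tested genes on each side. Called genes are red (higher) or blue (lower), and the bars return to near 0 within 1 gene of the 7p and 5p runs.

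Levels in the 1q-loss clones were set beside those of TK+. They were not tested against WT here, and any comparison of theirs with WT would share the 2 WT libraries. BASP1 was at 392 to 572 CPM in the 6 loss libraries, POU3F3 at 131 to 172 CPM, and MEST at 882 to 1774 CPM, all far above WT. For BASP1 and POU3F3 this range reached from below TK+ up to or near it, and for MEST it reached above TK+. FBN2 was at 14.9 to 66.6 CPM, SLC30A8 at 0.275 to 1.45 CPM and H19 at 10.4 to 71.7 CPM in the loss libraries, far below WT. Other genes did not follow TK+. NTNG1 was at 0.0983 to 0.618 CPM, VAV3 at 0.344 to 1.78 CPM and TOX at 0.295 to 1.1 CPM in all loss libraries, like WT and unlike TK+. MEOX2, at 1.28 CPM in TK+, was at 150 and 140 CPM in clone 2 and 47.2 to 52.8 CPM in clones 5 and 6.

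Other genes differed among the clones themselves. COL1A2 was at 2577 and 2590 CPM in clone 2, 1323 and 1302 CPM in clone 5 and 12 and 11 CPM in clone 6, the last close to the 11.3 and 11 CPM of TK+. POSTN was at 1599 and 1616 CPM in clone 5, above WT, but at 48.7 and 50.6 CPM in clone 2, below TK+. PNOC was at 12.2 and 11.1 CPM in clone 5 and at 0 to 0.187 CPM in clones 2 and 6. GPC4 was at 57.4 and 56.2 CPM in clone 6 and at 0.133 to 0.963 CPM in clones 2 and 5. Of the 13 genes that were on in TK+, 6 had 20 counts or more in all 6 loss libraries and 0 had 3 counts or fewer in all of them. Of the 33 that were off in TK+, 4 had 3 counts or fewer in all 6 loss libraries, 16 had 20 or more in at least 1, and 1 had 20 or more in all.

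AGS cells also have libraries labelled TK+, and were set beside A2780. With edgeR's quasi-likelihood test on 1 WT and 2 TK+ libraries, 0 of 15457 genes were called (0%), with 528 at an unadjusted p below 0.05, and DESeq2 called 27. The lone WT library is assumed to vary like the TK+ libraries, which are different clones. In A2780, 1 WT library against both TK+ libraries gave 1094 and 1148 called genes. Among 1071 genes called in A2780 and tested in AGS, 56.8% had the same sign of change in both lines, beside 54.2% of all 12197 genes tested in both. The Pearson correlation of their log2 fold changes was 0.08, across genes, which are not independent replicates. A test of the difference between lines (interaction) called 218 of 17421 genes (1.25%), 73 with the A2780 change above that in AGS and 145 below. Its count was 116 and 115 without WT replicate 1 or 2 of A2780, 85 and 82 without TK+ replicate 1 or 2 of A2780, 412 and 766 without the first or the second AGS TK+ library, and 334 with DESeq2.

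MEST was at 151 CPM in AGS WT and at 142 and 140 CPM in AGS TK+, and its change differed between lines by 4.59 on the log2 scale (adjusted p = 8.95e-06, edgeR). KRT8 was at 2570 CPM in AGS WT and at 2782 and 2036 CPM in AGS TK+, a difference of -5.49 from the change in A2780 (adjusted p = 5.72e-05). UGT8 was at 49.5 CPM in AGS WT and 43.5 and 41.5 CPM in TK+ (difference 5.46, adjusted p = 8.95e-06). GRB10 was at 150 CPM in AGS WT and 143 and 148 CPM in TK+ (difference -4.37, adjusted p = 2.53e-05). In these 4 genes AGS TK+ stayed near AGS WT. The genes of this paragraph were chosen by their change in A2780, which favours a difference between lines. AGS has 1 WT library, so its WT cells have no spread of their own. The p-values here are for the difference between lines, and edgeR called no gene in AGS alone. Changes in AGS are therefore given as levels only. OAS3 was at 270 CPM in AGS WT and 591 and 621 CPM in AGS TK+, above WT as in A2780 (difference 2.28, adjusted p = 0.000547). IFIT1 was at 165 CPM in AGS WT and 350 CPM in both AGS TK+ libraries, opposite in sign to A2780 (difference -1.83, adjusted p = 0.0011). CTGF was at 217 CPM in AGS WT and 98.8 and 95.7 CPM in AGS TK+, below WT as in A2780 (difference -5.67, adjusted p = 0.000119). IFI44L was at 11.7 CPM in AGS WT and 45.3 and 48.8 CPM in AGS TK+, with a difference of 0.03 between the lines (adjusted p = 1).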

How the data were processed

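Messenger RNA was sequenced (poly-T selection, random hexamers, per the labels' protocols). The authors deposited raw counts per gene, 1 table per library. Per the submitters' processing notes, HISAT2 2.0.5, featureCounts 1.5.0-p3 and hg38 were used, but the A2780 tables list 48162 genes with GRCh37 coordinates, and of 45342 IDs shared with GENCODE 29 (GRCh38) 261 have the same start and end. Gene positions here are GRCh37 from the tables. The strand setting is not given in the sources used here. Dates stood in place of 29 symbols of the A2780 tables.

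Genes were filtered (filterByExpr, minimum count 10, minimum total 15), scaled by TMM and tested with edgeR 4.0.16 (quasi-likelihood F-test, two-sided, Benjamini-Hochberg over all genes tested, called at adjusted p under 0.05) on the 4 libraries. SE is the log2 fold change over the square root of F. Arm shifts used log2 CPM with a prior count of 2. Alternatives were DESeq2 1.42.0, RLE, a fit with all genes, a filter at a mean of 1 CPM, all 10 A2780 libraries, a replicate block and each library left out. Counts of replicate libraries differed beyond sampling noise (chi-square per degree of freedom 6.87 in WT and 21.12 in TK+). R was version 4.3.3 and limma 3.58.1. Tables and intervals were made in Python 3.11.15 with pandas 2.3.3, scipy 1.17.1 and numpy 2.4.6, and plots with matplotlib 3.10.9.

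Named genes are TK1, TK2, CDKN1A, MDM2, MDM4 and UCK2; the 12 largest rises and falls among called protein-coding genes with a mean of at least 1 CPM; the 5 largest rises and falls in CPM; and up to 3 called members per direction of 32 gene lists, or the most abundant member where none was called. The comparison and the lists were chosen with earlier results of these data known. Genes of runs, COL1A1, COL3A1 and other genes outside the rule were chosen after their values were seen. Some items are not reported here.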

Additional observations from a re-analysis of the deposited data

Results flagged for a closer look

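The TK+ change differed between A2780 and AGS for 31 of the 136 named genes, by the interaction test of edgeR at an adjusted p under 0.05. Most named genes were chosen by their change in A2780, which favours such a difference, and over all genes 218 of 17421 (1.25%) passed. The value in brackets is the log2 fold change in A2780 minus that in AGS. It was above 0 for PRR15 (5.56), UGT8 (5.46), HELZ2 (4.39), CHN2 (4.24), MEST (4.59), BCL2L11 (1.63), OAS3 (2.28), CLDN1 (2.72), MMP14 (1.63), KRT10 (0.97), TDRD7 (1.64), ZNF431 (3.67), ZNF350 (4.02), ZNF772 (3.27) and HSPB1 (1.73). It was below 0 for TNFRSF19 (-8.47), IGFN1 (-7.84), ENPP1 (-13.12), CTGF (-5.67), GRB14 (-5.91), FBN2 (-10.33), IFIT1 (-1.83), TAP1 (-1.38), NID2 (-3.76), NID1 (-2.31), KRT8 (-5.49), KRT18 (-3.80), SEMA6A (-5.50), H19 (-4.26), GRB10 (-4.37) and CSF1 (-2.53). ENPP1 and FBN2 had 0 counts in AGS WT, TNFRSF19 had 0 counts in both A2780 TK+ libraries, GRB14 had 1 and 0 there, CTGF had 2 and 2, and PRR15 had 3 and 1 and ZNF350 6 and 2 in A2780 WT, so their values depend on the prior count and are no measure of size. AGS has 1 WT library, and the labels give the AGS TK+ libraries as different clones.

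In the 6 libraries of the 1q-loss clones, 1 library lay far from the other 5 for 3 named genes. The gap took 0.759 of the group's range of log2(CPM + 0.1) for PRR15, 0.667 for ZNF714 and 0.625 for ZNF566. The libraries are replicates of 3 clones and not independent draws, so no chance rate is given. Most of the named genes were not set apart in this way.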

How the results depend on the processing

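Of 1359 values of the named genes under the alternatives, 1270 kept their direction and their side of the threshold, 77 lost the call, 5 gained one and 7 changed sign. All 1669 called genes remained called with the same sign under RLE and under the replicate block, and 1157 did under DESeq2. The replicate block called 2288 genes, against 1669 without it; the replicate numbers do not pair libraries by any label, and the deviations of same-numbered WT and TK+ libraries correlated at 0.13 (-0.142 to 0.281 over all pairs of A2780 groups and clones). Leaving out 1 library gave 1094 to 3278 called genes, and 82 to 766 genes for the difference between lines. DESeq2 called 334 genes for that difference and 27 in AGS. A mean CPM of at least 1 left 17 of the 46 genes at or near 0 in 1 group, since the filter removes genes of few counts. Signs changed when 1 library was left out for 4 genes that were not called in the fit of the 4 libraries. MDM4 ran from -0.08 (without TK+ replicate 2) to 0.13 (-0.01 without WT replicate 2). MKI67 ran from -0.20 (without TK+ replicate 2) to 0.21 (-0.03 without WT replicate 1). MT-CO1 ran from -0.28 (without TK+ replicate 1) to 0.35 (-0.17 without WT replicate 2), and RPL4 from -0.03 (without TK+ replicate 1) to 0.18. The cause of these sign changes was not tested. Of 320 list counts under the alternatives, 76 moved by more than 1.5 times. The count of genes past 2-fold stayed between 615 and 897 under the alternatives run.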

Other observations

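The genes below were chosen after their values were seen. NR2F2, a nuclear receptor of mesenchyme and veins, was at 36.8 and 38 CPM in WT and 1.1 and 0.869 CPM in TK+ (log2 fold change -5.23 ± 0.16, SE, adjusted p = 5.74e-10, edgeR). POU3F4, a factor of the inner ear and brain, was at 30 and 30.6 CPM against 0.707 and 0.869 CPM. PDGFRA, a receptor for platelet-derived growth factor and a fibroblast marker, was at 36.4 and 38.2 CPM against 0.972 and 0.915 CPM, and VCAN, the matrix proteoglycan versican, at 44.5 and 52.9 CPM against 1.1 and 1.33 CPM. On 2q, the adjacent sodium channel genes SCN9A and SCN7A rose in 1 run with SCN1A, while SCN8A on chromosome 12 lay in a run of lower genes. SCN9A rose from 17.9 and 19.8 CPM to 101 and 107 CPM, and SCN7A from 4.54 and 4.4 CPM to 37.6 and 41.1 CPM. TYRP1, an enzyme of melanin synthesis, was at 141 and 140 CPM in WT and 59 and 49.2 CPM in TK+ (log2 fold change -1.37 ± 0.09, SE, adjusted p = 7.87e-07, edgeR), while PMEL, another gene of pigment cells, was at 1.54 and 1.33 CPM against 1.28 and 1.46 CPM (adjusted p = 0.95), and SOX10, MITF, MLANA, TYR and DCT were under 1 CPM.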
